A study of Mus musculus with 6 samples.

Results

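The CA1 field is the output stage of the hippocampal circuit, and a small set of genes serves as markers of its pyramidal neurons. In this data set 9 such markers were followed, and each was taken by its symbol from the 15423 genes of the deposited count table: Wfs1, Fibcd1, Pou3f1, Mpped1, Ndst3, Neurod6, Zbtb20, Iyd and Man1a. All 9 were present and all 9 passed the filter on low counts. The study compared 3 SD ("Short Day") mice, C57BL/6J mice conceived by breeders living in a cycle of 8 h of light (100 lux) and 8 h of dark and held in it until postnatal day 42. The comparison was with 3 CTR mice of the same strain, bred and kept in 12 h of light and 12 h of dark. The mice carry no transgene or deletion by the labels. The labels number the SD mice 2, 5 and 6 and the CTR mice 1, 2 and 5, and do not name their litters, so that p-values speak of the spread between these mice alone. Poly(A) RNA of the dissected hippocampus was sequenced (the study's methods name this tissue, while the extraction text of the labels speaks of cells and spheroids).

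A pyramidal neuron of CA1 receives its main excitatory input from CA3 through the Schaffer collaterals and sends its axon to the subiculum and beyond. Its identity is set by transcription factors, and it is read out by proteins of the endoplasmic reticulum, the Golgi apparatus and the cell surface. The question put to the data was whether the RNA of these markers differed in the hippocampi of SD mice, in which the study recorded from CA1 pyramidal neurons and counted their dendritic spines. RNA of the whole hippocampus was measured, so fewer cells of a type and less RNA per cell cannot be told apart. Several of the 9 genes are also transcribed outside CA1: Neurod6, Mpped1, Wfs1 and Pou3f1 in neocortical neurons, and Zbtb20 in other hippocampal neurons and in astrocytes.

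Total counts were 25755316 to 34447082 in SD mice and 23300710 to 30035148 in CTR mice. Levels are given as CPM, the counts scaled to a common library size with TMM factors. Xist and Ddx3y counts mark CTR mouse 5 as the only female (30044 Xist counts, against 0 to 20 in the other 5 mice), and ribosomal precursor RNA took 1.84% of reads counted for CTR mouse 1, against 0.164% to 0.231% elsewhere. Choroid plexus genes stood far apart between mice, with a summed level over 15 genes of 4030 to 11330 CPM in SD mice and 425.2 to 4715 CPM in CTR mice. Marker results that rest on any 1 mouse are given with the value without it.

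The promoters are shown first, because Neurod6 itself encodes a factor that binds E-boxes and the windows say which of its fellow markers hold that motif near the start site. RefSeq (GRCm38.p6, which is mm10) gave 10 windows for 8 of the 9 genes, all but Pou3f1, each with 250 bases before and 50 bases after an annotated start. The motif searched was CAGATG on both strands, an E-box (CANNTG) of the kind that NEUROD factors prefer. It occurred in 3 of the 10 windows, those of Wfs1, Ndst3 and Iyd, and in 17.2% of all 32851 windows in the table. In the lines that follow, its letters (CAGATG, or CATCTG on the other strand) are in capitals. The Man1a window is added because Man1a alone had all 3 SD mice above all 3 CTR mice, and it is in lower case throughout since it holds no CANNTG.
Wfs1 (chr5:36988933-36989232, minus strand): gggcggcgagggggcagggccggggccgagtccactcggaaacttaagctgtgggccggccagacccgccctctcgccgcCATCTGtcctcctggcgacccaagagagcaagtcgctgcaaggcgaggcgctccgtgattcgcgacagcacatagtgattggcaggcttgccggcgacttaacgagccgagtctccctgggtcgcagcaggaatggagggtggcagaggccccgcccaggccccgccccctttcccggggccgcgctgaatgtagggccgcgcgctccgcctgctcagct
Ndst3, first window (chr3:123672428-123672727, minus strand): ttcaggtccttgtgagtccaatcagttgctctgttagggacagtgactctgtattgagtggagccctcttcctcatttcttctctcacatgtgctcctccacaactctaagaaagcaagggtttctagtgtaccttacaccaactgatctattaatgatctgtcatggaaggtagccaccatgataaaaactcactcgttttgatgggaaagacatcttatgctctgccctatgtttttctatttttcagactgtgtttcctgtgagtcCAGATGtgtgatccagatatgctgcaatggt
Iyd (chr10:3540024-3540323, plus strand): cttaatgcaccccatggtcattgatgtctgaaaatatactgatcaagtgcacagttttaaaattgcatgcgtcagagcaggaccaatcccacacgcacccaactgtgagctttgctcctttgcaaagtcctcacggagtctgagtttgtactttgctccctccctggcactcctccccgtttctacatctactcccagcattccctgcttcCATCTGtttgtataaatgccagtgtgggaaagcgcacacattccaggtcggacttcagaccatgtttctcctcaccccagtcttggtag
Man1a (chr10:54075688-54075987, minus strand): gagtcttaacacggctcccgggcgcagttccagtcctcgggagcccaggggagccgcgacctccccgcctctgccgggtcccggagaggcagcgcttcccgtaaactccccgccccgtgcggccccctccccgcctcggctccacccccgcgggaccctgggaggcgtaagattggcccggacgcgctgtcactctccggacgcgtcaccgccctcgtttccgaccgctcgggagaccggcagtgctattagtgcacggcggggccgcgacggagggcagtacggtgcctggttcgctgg

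The capitals begin at position -170 from the start site in Wfs1, -39 in Iyd and 20 in Ndst3. Any E-box, CANNTG, was found in 7 of the 10 windows and in 72.3% of all windows. The palindromic E-box CACGTG, which CLOCK and BMAL1 bind, was in none of the 10 windows (7.15% of all), nor was the octamer ATGCAAAT, the site of POU factors such as Pou3f1 (1.74% of all). A match to these letters describes the window only and does not show binding.

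None of the 9 CA1 markers was called different between SD and CTR hippocampi. A gene was called at the cutoffs of the study's methods (p up to 0.05 without adjustment, with a log2 fold change of 0.58 or more in size) in the quasi-likelihood test of edgeR over 15345 genes, where 2.10% of genes were called higher and 0.880% lower in SD mice. DESeq2 called none of the 9 as well. Of the 9, 1 gene, Man1a, reached the unadjusted p cutoff of 0.05 in edgeR, against 8.32% of all genes tested, and in DESeq2 2 did, Man1a and Mpped1. No adjusted p was under 0.05 for any gene in edgeR (56 genes in DESeq2), and those of the markers ran from 0.565 to 0.96. Of the markers, 6 had a fold change below 0 and 3 above it. Their median log2 fold change was -0.069, beside 0.0015 over all genes tested, and their median absolute value was 0.086, beside 0.103. The 95% interval of the log2 fold change lay inside -0.58 to 0.58 for 8 of the 9 genes, with Iyd the exception. Man1a was the only marker whose groups did not overlap, with the SD mice higher (6.11% of all genes), and none had all SD mice lower (6.20% of all genes). The same shares apply to each other gene given below as without overlap.

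**Figure D1:**
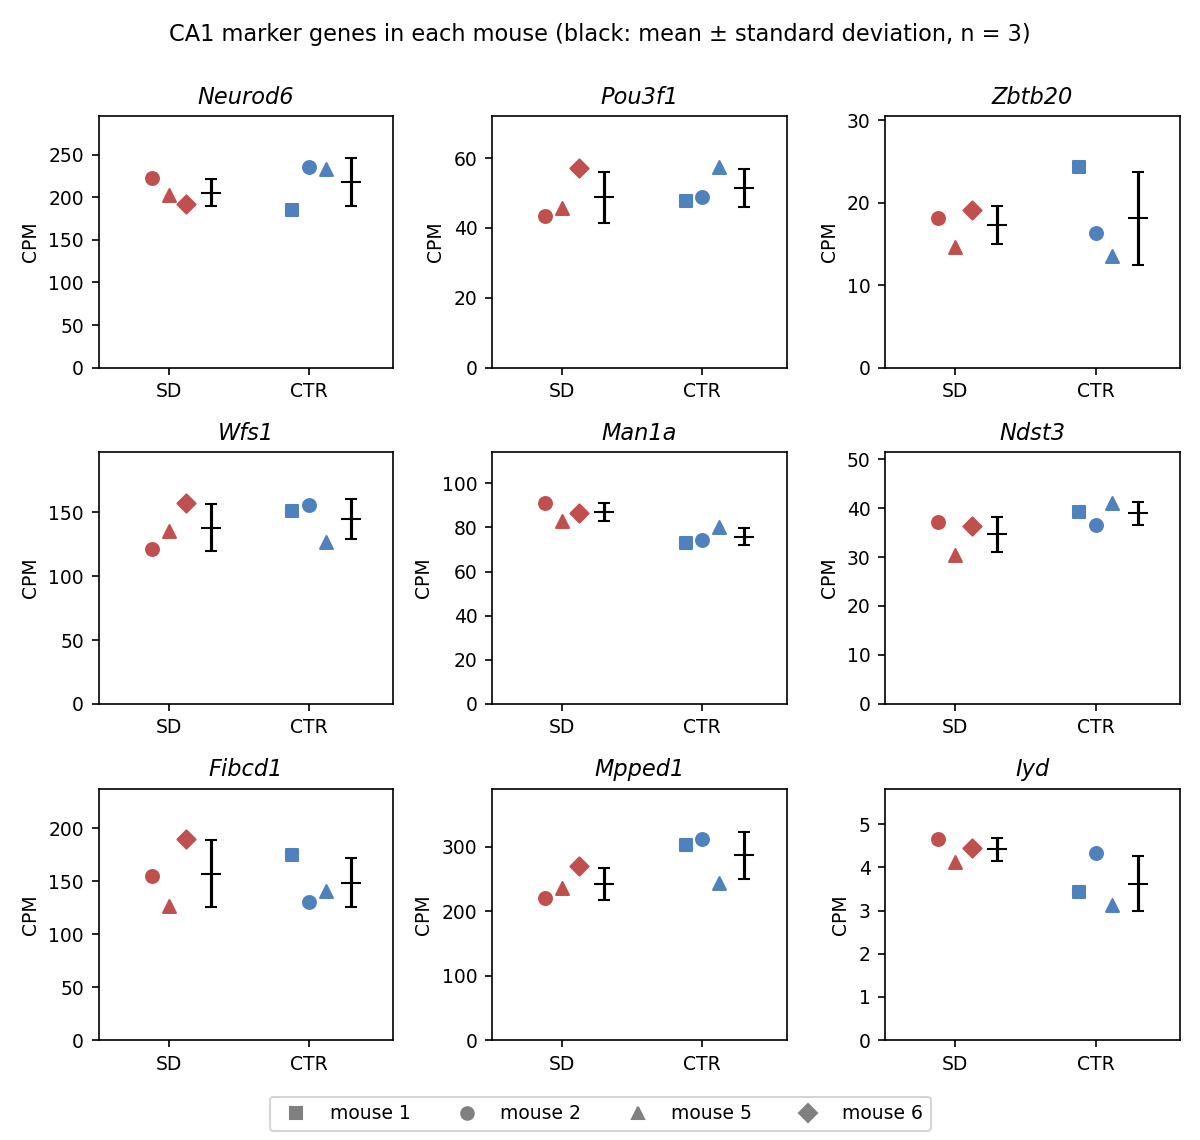
Level in CPM (vertical axes, from 0) of each CA1 marker in 3 SD mice (red, left) and 3 CTR mice (blue, right), with the mean ± standard deviation beside them in black and 1 symbol shape per mouse number. The groups overlap in 8 of the 9 panels, and in the Man1a panel the SD mice sit between 83.0 and 91.2 CPM and the CTR mice between 72.8 and 80.0 CPM.

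**Figure D2:**
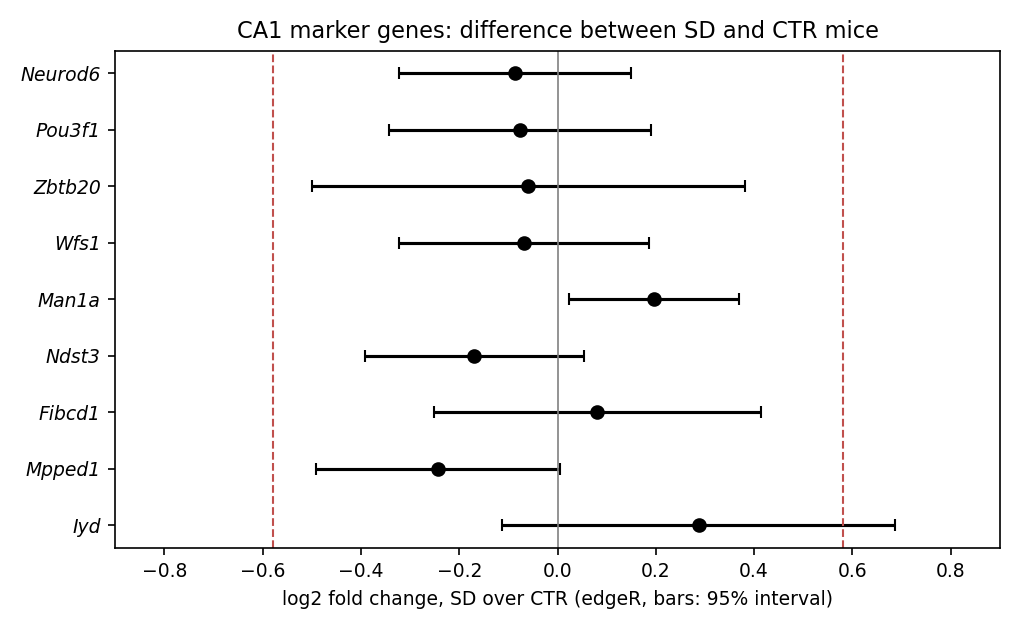
Log2 fold change of SD over CTR for each marker in edgeR (points) with its 95% interval (bars), and the study's fold cutoff of 0.58 in either direction (dashed red lines). The interval crosses a cutoff for Iyd alone, and that of Man1a, from 0.024 to 0.37, is the only one that does not include 0.

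The transcription factors among the markers are Neurod6, Pou3f1 and Zbtb20. Neurod6 encodes a basic helix-loop-helix factor of glutamatergic forebrain neurons and lies on chromosome 6 of GRCm38 from 55677822 to 55681263 on the minus strand. Its level was 222.6, 202.6 and 191.6 CPM in SD mice 2, 5 and 6, against 185.4, 236.1 and 232.8 CPM in CTR mice 1, 2 and 5. The lowest and the highest values were both in CTR mice, so the SD range fell inside that of the CTR mice. The log2 fold change was -0.086, with a standard error of 0.11 and adjusted p = 0.871 in edgeR. With 1 mouse left out it ranged from -0.19 without CTR mouse 1, the mouse of the lowest level and of the most ribosomal precursor RNA, to -0.025 without CTR mouse 2, and unadjusted p was 0.0502 and 0.836 in these fits. It was also small without CTR mouse 5 (-0.036) or SD mouse 6 (-0.040), and -0.15 without SD mouse 2.

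Neurod6 stood within a list of neuronal helix-loop-helix factors and their E-protein partners, of which 9 genes were tested and none was called or reached an unadjusted p of 0.05. Neurod2, the closest relative in these neurons, was 145.9 ± 16.0 CPM in SD mice and 144.6 ± 21.2 CPM in CTR mice (standard deviation, n = 3 each). Bhlhe22, a repressor of the same superfamily, was 114.9 ± 7.16 CPM in SD mice and 101.1 ± 11.4 CPM in CTR mice, with a log2 fold change of 0.19 (adjusted p = 0.646 in edgeR). Tcf4, an E protein that pairs with these factors, was at 463 to 509.9 CPM in SD mice, below the 524.4 to 542.2 CPM of CTR mice, but its log2 fold change was only -0.11 (adjusted p = 0.716 in edgeR).

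Pou3f1 encodes the POU factor also named SCIP or Oct6, and its exon of 3849 bases lies on chromosome 4 from 124656807 to 124660655 on the plus strand. It had 43.4, 45.8 and 57.0 CPM in SD mice 2, 5 and 6, against 47.8, 48.8 and 57.6 CPM in CTR mice 1, 2 and 5. A single mouse of each group stood above the rest, SD mouse 6 and CTR mouse 5, and the groups overlapped. The antisense gene Gm2164 overlaps 330 bases of its exon, and the counting was by strand. Its log2 fold change was -0.076, with a standard error of 0.12 and adjusted p = 0.904 in edgeR, and it was 0.014 without CTR mouse 5. The other class III POU genes were also below 0 without passing the test: Pou3f3 had a log2 fold change of -0.14, Pou3f4 of -0.17 and Pou3f2 of -0.20. Pou3f4 ranged from 6.43 to 6.52 CPM in SD mice and from 6.75 to 8.05 CPM in CTR mice, without overlap.

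Zbtb20 encodes a zinc finger repressor that is needed in mice for the identity of the CA1 field. It spans chromosome 16 from 42875881 to 43642602 on the plus strand with 21 transcripts in GENCODE M21, and shares 83 exon bases with Mir568 on the same strand. Its level was 18.2, 14.6 and 19.1 CPM in SD mice 2, 5 and 6, against 24.4, 16.3 and 13.5 CPM in CTR mice 1, 2 and 5. Both extremes were CTR mice, and the coefficient of variation was 31.1% in CTR mice, the widest of any marker in either group, and 13.6% in SD mice. The log2 fold change of -0.060, with a standard error of 0.20 and adjusted p = 0.96 in edgeR, had the widest interval of the 9, from -0.50 to 0.38. It was 0.21 without CTR mouse 1 and -0.23 without CTR mouse 5. In CTR mouse 1 the summed level of 10 astrocyte markers was also highest, at 7168 CPM, against 5469 to 6387 CPM in the other 5 mice, and its part in the Zbtb20 value was not tested. Of the related zinc finger genes, Zbtb18 encodes a repressor that acts in cortical development. Its level was 514.5 ± 33.4 CPM in SD mice and 529.9 ± 25.0 CPM in CTR mice (standard deviation, n = 3 each).

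Wfs1, Man1a and Ndst3 encode proteins of the endoplasmic reticulum and the Golgi apparatus. Wfs1, the gene of wolframin and of Wolfram syndrome, encodes a membrane protein of the endoplasmic reticulum and lies on chromosome 5 from 36966104 to 36989205 on the minus strand. It had 121.3, 135.2 and 157.6 CPM in SD mice 2, 5 and 6, against 151.4, 156.1 and 127.1 CPM in CTR mice 1, 2 and 5. SD mouse 6 was the highest of all and SD mouse 2 the lowest, so the SD mice spanned the CTR range. The log2 fold change was -0.069, with a standard error of 0.11 and adjusted p = 0.911 in edgeR, and without SD mouse 2 it was 0.016.

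Around Wfs1, a list of 12 genes of the endoplasmic reticulum membrane and its stress response had none called. Of these, 1 reached an unadjusted p of 0.05: Eif2ak3, the PERK kinase gene, at 30.5 ± 1.62 CPM in SD mice and 35.1 ± 2.02 CPM in CTR mice (standard deviation, n = 3 each; log2 fold change -0.20, adjusted p = 0.599 in edgeR). The chaperones Hspa5 and Hsp90b1, the 2 most abundant genes of that list, had log2 fold changes of 0.14 and 0.25 and adjusted p-values of 0.885 and 0.641 in edgeR. Hspa5 was 263 CPM in SD mouse 2 and 441.9 and 484.3 CPM in SD mice 5 and 6, against 316.6 to 406.5 CPM in CTR mice. SD mouse 2 was thus lowest for Wfs1 and for Hspa5. For Hsp90b1 the lowest was CTR mouse 1, at 364.0 CPM, against 399.2 CPM in SD mouse 2.

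Man1a encodes a Golgi mannosidase that trims mannose from N-glycans, and it lies on chromosome 10 from 53904785 to 54076609 on the minus strand. It had 2349, 2454 and 2983 counts in SD mice 2, 5 and 6, against 1662, 1804 and 2437 counts in CTR mice 1, 2 and 5. Scaled, this was 91.2, 83.0 and 86.3 CPM in SD mice, against 72.8, 74.4 and 80.0 CPM in CTR mice. All SD mice were above all CTR mice. The group means were 86.8 ± 4.09 CPM in SD mice and 75.8 ± 3.79 CPM in CTR mice (standard deviation, n = 3 each). For the fold change the log2 value was 0.20 (standard error 0.078), with p of 0.0294 before adjustment and adjusted p = 0.565 over all genes in edgeR. As a ratio of SD over CTR this is 1.15, with an interval of 1.02 to 1.29. The log2 fold change stayed between 0.16 and 0.24 when any mouse was left out, and p without adjustment ran from 0.017 to 0.108 in those fits. Unadjusted p was above 0.05 without CTR mouse 1 (0.068), CTR mouse 2 (0.0803), SD mouse 2 (0.108) or SD mouse 6 (0.0583).

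Most other genes of N-glycan processing (trimming enzymes and transferases that act after them) did not share this direction. Of 10 tested, 8 had a log2 fold change below 0, none was called and 1 reached an unadjusted p of 0.05. This was Man2a1, which encodes the Golgi mannosidase acting after Man1a, at 22.2, 25.5 and 23.8 CPM in SD mice and 28.9, 28.8 and 28.2 CPM in CTR mice. The fold change on the log2 scale was -0.26 (standard error 0.092), with p of 0.017 before adjustment and adjusted p = 0.553 in edgeR, and its groups did not overlap. Of the paralogs of Man1a, Man1a2 had a log2 fold change of -0.044, Man1b1 of -0.072 and Man1c1 of -0.20, each with overlapping groups.

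Ndst3 encodes an N-deacetylase and N-sulfotransferase that modifies heparan sulfate chains, and lies on chromosome 3 from 123526166 to 123690853 on the minus strand. It was 37.1, 30.5 and 36.4 CPM in SD mice 2, 5 and 6, against 39.3, 36.5 and 41.1 CPM in CTR mice 1, 2 and 5. SD mouse 5 was the lowest, and SD mouse 2 lay above CTR mouse 2, so the groups overlapped. SD over CTR, the log2 fold change was -0.17, with a standard error of 0.10 and adjusted p = 0.684 in edgeR, and it ranged from -0.22 without SD mouse 2 to -0.086 without SD mouse 5. Among its paralogs, Ndst1 had a log2 fold change of -0.12, Ndst2 of -0.088 and Ndst4 of 0.18, with adjusted p-values from 0.748 to 0.864 in edgeR.

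In the wider list of heparan sulfate synthesis and sulfation, 21 genes were tested, 1 was called higher and 1 lower. Sulf1, which encodes an extracellular sulfatase of these chains, was called higher at 36.4, 107.4 and 94.8 CPM in SD mice and 31.5, 11.3 and 41.0 CPM in CTR mice (log2 fold change 1.51 with standard error 0.45, adjusted p = 0.512 in edgeR). The 6 mice stood in the same order for Sulf1 as for the choroid plexus sum, which was 11330 and 11230 CPM in SD mice 5 and 6 and 425.2 CPM in CTR mouse 2, and the part of that tissue in the Sulf1 value was not tested. Hs3st3a1, a sulfotransferase gene close to the limit of detection, was called lower, at 0.498 ± 0.055 CPM in SD mice and 0.910 ± 0.194 CPM in CTR mice (standard deviation, n = 3 each).

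The remaining markers encode a surface receptor and a pair of enzymes. Fibcd1 encodes a membrane receptor that binds acetylated structures such as chitin, and lies on chromosome 2 from 31813290 to 31846005 on the minus strand. It was 154.8, 126.6 and 189.7 CPM in SD mice 2, 5 and 6, against 174.4, 130.5 and 140.6 CPM in CTR mice 1, 2 and 5. SD mice held both the highest and the lowest value, and the coefficient of variation was 20.1% in SD mice and 15.5% in CTR mice. Between the groups the log2 fold change was 0.081, with a standard error of 0.15 and adjusted p = 0.923 in edgeR. Its direction rested on SD mouse 6, without which it was -0.080, and on CTR mouse 2, without which it was -0.0033.

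Mpped1, which encodes a metallophosphoesterase domain protein of brain, had the lowest log2 fold change of the 9 and did not pass the test. It lies on chromosome 15 from 83779467 to 83858494 on the plus strand. Its level was 220.5, 236.2 and 269.5 CPM in SD mice 2, 5 and 6, against 303.4, 312.0 and 244.0 CPM in CTR mice 1, 2 and 5. CTR mouse 5 lay among the SD mice, and the other CTR mice were above all of them. The means were 242.1 ± 25.0 CPM in SD mice and 286.5 ± 37.1 CPM in CTR mice (standard deviation, n = 3 each). On the log2 scale the fold change was -0.24 (standard error 0.11), with p of 0.0544 before adjustment and adjusted p = 0.606 in edgeR, and DESeq2 gave p of 0.0345 and an adjusted p of 0.561. Without CTR mouse 5, the female, the log2 fold change was -0.35 with p of 0.00426 and an adjusted p of 0.163 in edgeR, and without SD mouse 6 it was -0.33 with p of 0.0259 before adjustment. Leaving out any other mouse brought it nearer to 0, to -0.18 without CTR mouse 2 or SD mouse 2, -0.23 without SD mouse 5 and -0.20 when CTR mouse 1 was omitted, with unadjusted p from 0.133 to 0.184. Neocortical layer markers are given beside it, since Mpped1 is also a neocortical gene: the sum of 10 of them was 473.9, 555.4 and 503.5 CPM in SD mice 2, 5 and 6 and 594.6, 603.8 and 584.2 CPM in CTR mice 1, 2 and 5, without overlap. Of these 10 genes 2 were called lower, Tshz2 and Foxp2, and 2 had a log2 fold change above 0. An unadjusted p of 0.05 in edgeR was reached by 4 of the 10, all lower in SD mice. Tshz2 weighed heavily in the sum, with a mean of 105.0 CPM in SD mice and 163.4 CPM in CTR mice. It was not alone in being lower, as Rorb and Cux2 had log2 fold changes of -0.50 and -0.45. Neurod6, Wfs1 and Pou3f1, transcribed in neocortex as well, had log2 fold changes of -0.086, -0.069 and -0.076. The part of neocortical tissue in the Mpped1 value was not tested. Mpped2, the relative of Mpped1, was 36.9 ± 2.60 CPM in SD mice and 37.5 ± 3.30 CPM in CTR mice (standard deviation, n = 3 each).

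Iyd encodes iodotyrosine deiodinase, which is best known from the thyroid, where it recovers iodide. It lies on chromosome 10 from 3540240 to 3554877 on the plus strand. It was the marker with the fewest reads, with 120, 122 and 154 counts in SD mice 2, 5 and 6, against 78, 105 and 95 counts in CTR mice 1, 2 and 5. Counting error alone is 8.06% to 11.3% at these numbers. In CPM it was 4.66, 4.13 and 4.46 in SD mice, against 3.42, 4.33 and 3.12 in CTR mice, so that CTR mouse 2 lay among the SD mice and the other CTR mice below them. The log2 fold change of 0.29 was the largest of the 9 in either direction, with a standard error of 0.18 and adjusted p = 0.708 in edgeR, and its interval of -0.11 to 0.69 was the only one to pass 0.58. With 1 mouse left out it ranged from 0.19 without CTR mouse 5 (unadjusted p of 0.351) to 0.43 without CTR mouse 2 (unadjusted p of 0.0436).

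Genes of thyroid hormone handling were set beside Iyd. Dio3, the deiodinase that inactivates thyroid hormone, was called, at 5.71, 6.16 and 10.9 CPM in SD mice and 4.78, 3.34 and 5.55 CPM in CTR mice (log2 fold change 0.73 with standard error 0.27, adjusted p = 0.553 in edgeR). Slco1c1 and Crym reached an unadjusted p of 0.05 below the fold cutoff, with log2 fold changes of 0.55 and 0.23. Not all genes of this kind shared the direction. Dio2 and Thrb had log2 fold changes of -0.079 and -0.14, without reaching that p. Thra, with a log2 fold change of 0.079, went the same way as Iyd and did not reach it either. Slco1c1 encodes a transporter that the choroid plexus also expresses, it was lowest in CTR mouse 2, as was the choroid plexus sum, and the part of that tissue in it was not tested.

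Set side by side per kilobase of exon, the markers covered a wide range of levels. Neurod6 was highest with a mean over the 6 mice of 98.5 CPM per kb, followed by Mpped1 with 61.5, Wfs1 with 37.4, Fibcd1 with 32.2, Pou3f1 with 13.0, Man1a with 8.43, Ndst3 with 3.73, Iyd with 2.48 and Zbtb20 with 0.575 CPM per kb. The only neighbours in this order whose ranges over the mice overlapped were Wfs1, at 32.0 to 41.6 CPM per kb, and Fibcd1, at 26.6 to 39.9 CPM per kb. The median over 15055 genes with an exon length was 5.26 CPM per kb, so that 6 of the 9 markers lay above it. The lengths are those of GENCODE M21, which may not be the annotation the authors counted with, and the exons of Zbtb20 add up to 30730 bases in it. Within families, Neurod6 was above Neurod2 (46.2 CPM per kb) and Mpped1 above Mpped2 (10.9 CPM per kb), whereas Ndst3 was below Ndst1 (22.5 CPM per kb) and Man1a below Man1a2 (19.4 CPM per kb). Pou3f1 and Pou3f3, at 15.1 CPM per kb, were nearer to each other than to Pou3f2 and Pou3f4, at 2.66 and 2.35 CPM per kb.

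**Figure D3:**
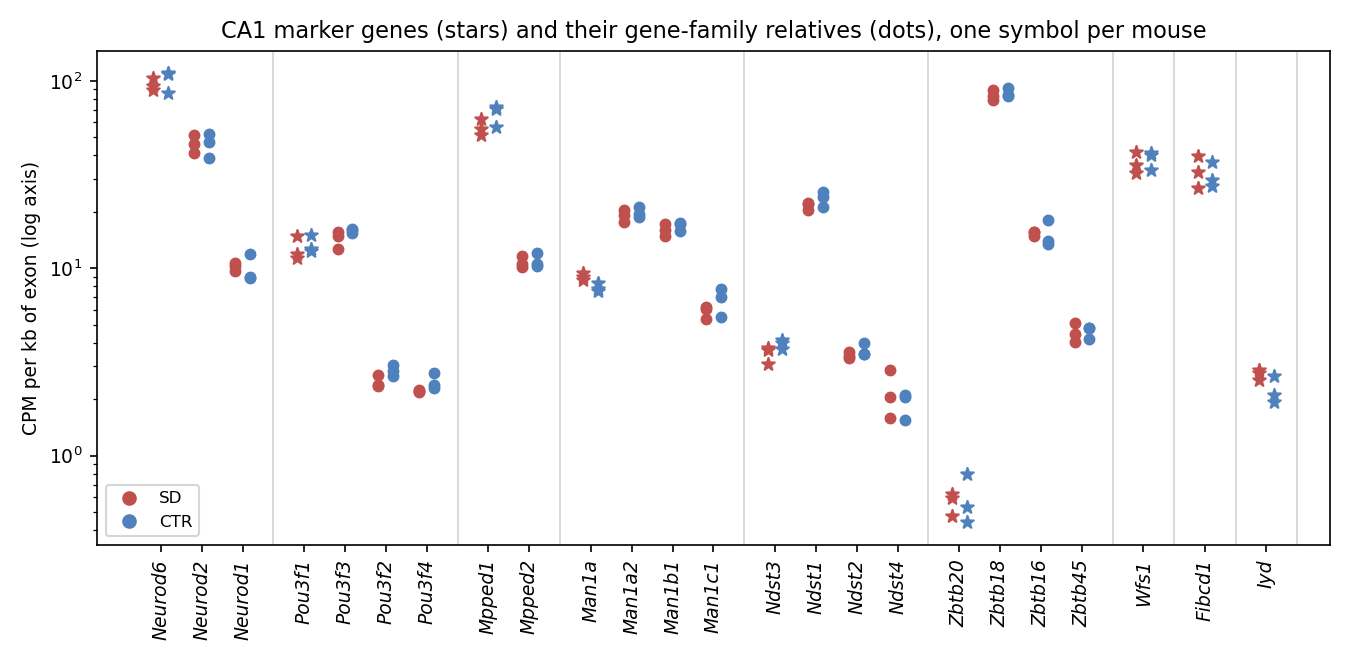
Level per kilobase of GENCODE M21 exon (CPM per kb, log axis) of the CA1 markers (stars) and of relatives in the same gene family (dots), with 3 SD mice in red on the left and 3 CTR mice in blue on the right of each gene. Neurod6 is the highest marker with a mean of 98.5 CPM per kb and Zbtb20 the lowest with 0.575, and differences between genes are far wider than those between SD and CTR mice.

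The 9 genes did not rank the mice in the same order. The number of markers above their own 6-mouse mean was 6, 2 and 7 in SD mice 2, 5 and 6, against 5, 4 and 3 in CTR mice 1, 2 and 5. SD mouse 6 was highest for Wfs1 and Fibcd1, SD mouse 2 was highest for Man1a and Iyd and lowest for Wfs1, Pou3f1 and Mpped1, and CTR mouse 5 was highest for Pou3f1 and Ndst3. The summed level was 913.7, 878.8 and 1012 CPM in SD mice 2, 5 and 6, against 1002, 1015 and 939.8 CPM in CTR mice 1, 2 and 5, with overlapping groups. Most of this sum is made up by Mpped1, Neurod6, Fibcd1 and Wfs1.

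Among other genes enriched in CA1, Spink8, Lefty1, Gpr161, Ccn3 and Sstr4 had log2 fold changes from 0.028 to 0.12, and none of these 5 reached an unadjusted p of 0.05. Ccn3, which encodes a secreted matricellular protein, was 177.5 ± 16.3 CPM in SD mice and 163.1 ± 24.4 CPM in CTR mice (standard deviation, n = 3 each).

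The neighbouring fields were compared by their own lists. Of 10 dentate granule cell markers none was called and none reached an unadjusted p of 0.05, with a median log2 fold change of 0.095. Prox1, the factor of granule cell identity, was 126.4 ± 9.04 CPM in SD mice and 128.2 ± 13.8 CPM in CTR mice, and Dock10 was 129.8 ± 7.8 CPM in SD mice and 118.3 ± 7.24 CPM in CTR mice (standard deviation, n = 3 each). Of 11 markers of CA3 and CA2 none was called, 1 reached an unadjusted p of 0.05 in each direction, and the median log2 fold change was 0.052. These were Coch, with a log2 fold change of 0.51, and Dkk3, which had 363.1 to 421.1 CPM in SD mice and 433.6 to 475.3 CPM in CTR mice and a log2 fold change of -0.23 (adjusted p = 0.553 in edgeR). The summed dentate level was 491.9, 523.1 and 510.0 CPM in SD mice and 516.9, 438.8 and 487.5 CPM in CTR mice, and that of CA3 and CA2 was 829.1, 799.4 and 860.3 CPM in SD mice and 856.1, 878.8 and 912.7 CPM in CTR mice. The dentate sum overlapped between the groups, as did that of CA3 and CA2 and that of the CA1 markers. Dkk3 made up much of the CA3 and CA2 sum, with a mean of 393.8 CPM in SD mice and 460.2 CPM in CTR mice. Of the 11 genes in that sum, 7 had a log2 fold change above 0. Of 7 genes shared by forebrain glutamatergic neurons none was called and 1 reached an unadjusted p of 0.05. This was Nrgn, which encodes the calmodulin-binding protein neurogranin, at 953.1, 884.6 and 1109 CPM in SD mice and 827.0, 849.2 and 826.1 CPM in CTR mice, without overlap (log2 fold change 0.24, adjusted p = 0.565 in edgeR). The most abundant gene of that list, Camk2a, was 3943 ± 265 CPM in SD mice and 3960 ± 516 CPM in CTR mice, and Hpca was 1388 ± 126 CPM in SD mice and 1369 ± 18.9 CPM in CTR mice (standard deviation, n = 3 each).

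**Figure D4:**
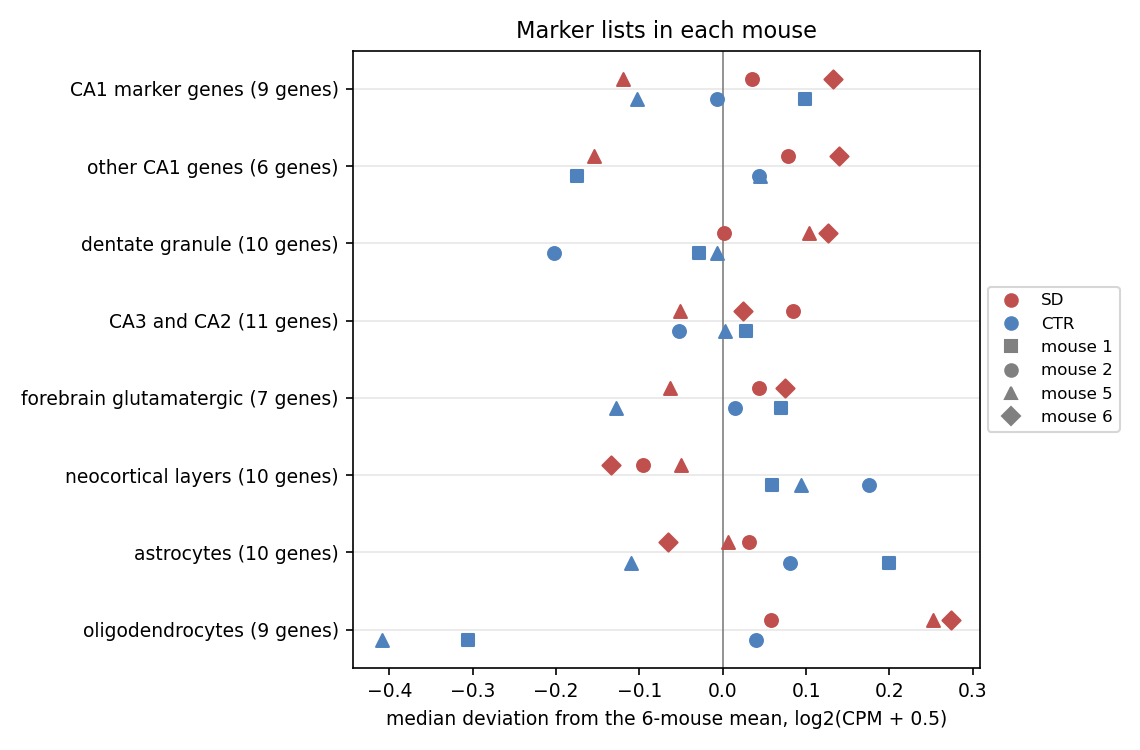
For each marker list (rows, with the number of genes tested), the median over its genes of the deviation from the gene's 6-mouse mean on the log2(CPM + 0.5) scale, in SD mice (red, upper) and CTR mice (blue, lower), with 1 symbol shape per mouse number. SD mice lie between -0.12 and 0.13 and CTR mice between -0.10 and 0.098 for the CA1 markers, while the neocortical list has all SD mice below and all CTR mice above 0.

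Lists of other cell types give the setting of these values. Of the thalamic markers 6 of 10 were called lower (median log2 fold change -0.63), with the highest sum in CTR mouse 2 (762.1 CPM, against 395.1 to 488.2 CPM in the other 5 mice). Choroid plexus markers were called higher for 14 of 15, oligodendrocyte markers for 1 of 9, although 8 of these 9 reached an unadjusted p of 0.05 and were higher in SD mice. None of 8 interneuron, 10 astrocyte, 8 microglia and 8 endothelial markers was called in either direction. Of these, 1 interneuron and 1 astrocyte marker reached an unadjusted p of 0.05, both lower in SD mice. All 8 endothelial markers had a log2 fold change below 0, with a median of -0.16, and none reached that p.

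**Figure D5:**
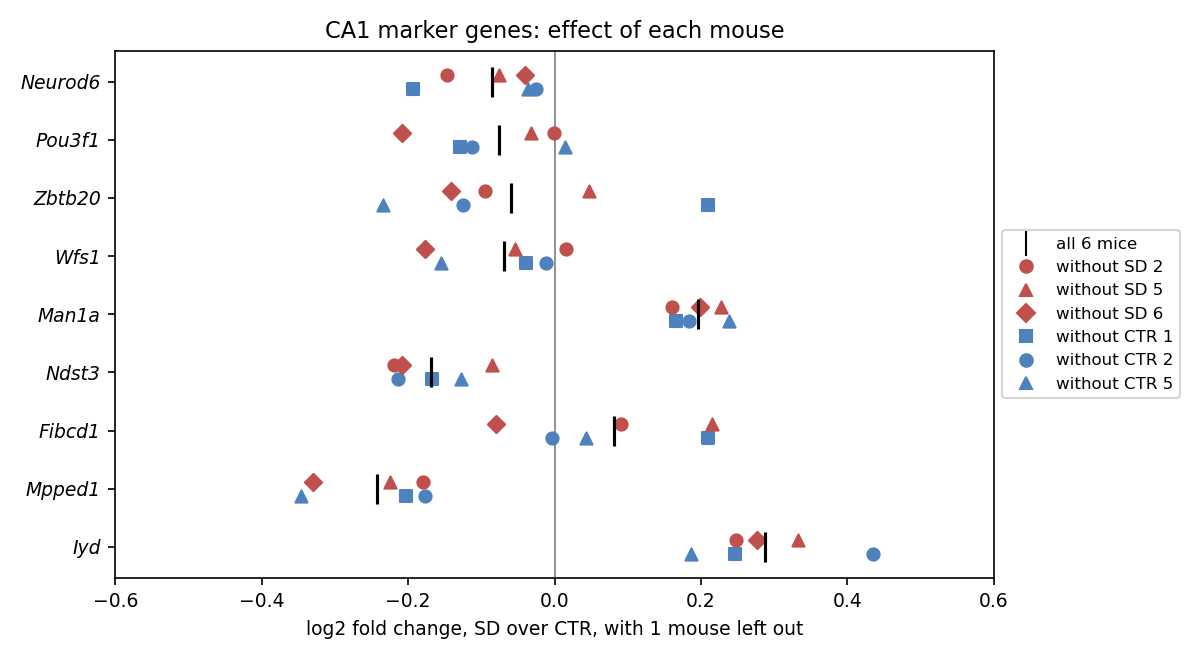
Log2 fold change of SD over CTR for each CA1 marker with all 6 mice (black bars) and with 1 mouse left out (symbols, red for an SD mouse and blue for a CTR mouse). Man1a, Iyd, Mpped1, Ndst3 and Neurod6 keep their sign in all 6 fits, and Zbtb20 ranges from -0.23 to 0.21.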

How the data were processed

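Per the study's methods, reads were trimmed (Trim Galore) and aligned to mm10 (Hisat2), and the authors obtained counts per gene from featureCounts, strand-specific and including multi-mapped reads. SAMtools, Picard and DESeq2 stand in the submitters' processing notes. Which tool versions and which annotation were used is not given in the sources used here. Raw counts per gene and mouse make up the deposited table. Its other columns, with 3 further sheets, hold the authors' own DESeq2 comparison and were not used. Columns were matched to mice by the sample titles.

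Counts were filtered with filterByExpr (15345 of 15423 genes kept), TMM-normalized and tested across all genes with glmQLFit and glmQLFTest of edgeR 4.0.16 in R 4.3.3, SD over CTR, without covariates, with Benjamini-Hochberg adjustment. Standard errors are the fold change over the square root of F, and 95% intervals use the test's degrees of freedom. The script was tested on simulated data. The alternatives were DESeq2 1.42.0, DESeq2 size factors, no filter, a mean count of at least 50, each mouse left out, a replicate block over the mice numbered 2 and 5, library totals without choroid plexus genes and Rn45s, and an adjusted p under 0.05. Exon lengths and positions are from GENCODE M21 (GRCm38), with a length for 98.1% of tested genes. All 9 markers are named. Other list genes were named as called members of a list, as some of its most abundant ones or as family relatives of a marker. Not every such gene is named. The thalamic, choroid plexus, oligodendrocyte, interneuron, astrocyte, microglia and endothelial lists are given without gene names. Genes named beyond this rule were chosen after their values were seen. They are Eif2ak3, Man2a1, Coch, Nrgn, Rorb, Cux2, Slco1c1, Crym, Dio2, Thra, Thrb and the other CA1 genes. The markers and lists were chosen with earlier results of these data known. Some genes of the CA1 and thyroid hormone lists are not reported here, so no count over those lists is given.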

Additional observations from a re-analysis of the deposited data

How the results depend on the processing

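No marker of CA1 neurons was called under any alternative run, at the study's cutoffs or at an adjusted p under 0.05 in edgeR or DESeq2. The number of markers that reached an unadjusted p of 0.05 was 1 with all mice, 2 with DESeq2, 0 to 2 with 1 mouse left out, and in the 4 mice numbered 2 and 5 it was 1 with a replicate block (Pou3f1) and 0 without it. Man1a, the marker that reached it with all mice, had an unadjusted p of 0.13 with the block and 0.0999 without. With 1 mouse left out, the log2 fold change ranged from -0.18 to 0.016 for Wfs1, from -0.080 to 0.21 for Fibcd1, from -0.21 to 0.014 for Pou3f1 and from -0.23 to 0.21 for Zbtb20. Over all genes, 322 were called higher and 135 lower in SD mice. A mean count of at least 50 gave 201 and 64 and fewer genes tested, adjusted p under 0.05 gave 0 and 0 in edgeR and 26 and 30 in DESeq2, and leaving out 1 mouse gave 155 to 500 and 87 to 207 (leaving out CTR mouse 5 gave 500 and 207, SD mouse 6 gave 155 and 87, and CTR mouse 2 gave 204 and 154). The cause of these shifts was not tested.

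The numbers 2 and 5 occur in both groups, but the labels do not say that they pair the mice, and the deviations from the group means correlated over genes at r = 0.208 for number 2 and 0.116 for number 5, against -0.155 to 0.118 for the 7 pairs of unlike number. A fit with a replicate block over these 4 mice called 236 genes higher and 78 lower, against 91 and 69 without the block in the same mice, an alternative added after seeing the data. Zbtb20 turned to 0.13 in both of these fits, and unadjusted p for Pou3f1 was 0.0344 with the block (log2 fold change -0.25) and 0.0507 without (-0.26). The depth limits Iyd most, at 78 to 154 counts.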
